A study of Mus musculus with 4 samples.

Results

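*Tnf* and 9 genes of its receptor and of NF-κB control (*Tnfrsf1a*, *Nfkb1*, *Nfkb2*, *Relb*, *Nfkbia*, *Nfkbiz*, *Tnfaip3*, *Tnip1* and *Birc3*) were followed across the cell types of the mouse lung before and after mechanical ventilation. These 10 genes were taken by symbol from the 32285 genes of the count matrices, and each had a row in every matrix. The unique molecular identifiers (UMIs, which mark single captured transcripts) of each gene were summed per library and cell type. The sums were scaled to 1000000 UMIs of that cell type and library (CPM).

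The study profiled the left lung lobe of male C57BL/6 mice by droplet scRNA-Seq in 4 libraries, each from the pooled cells of 3 mice. Young mice were 2 to 3 months old and aged mice 22 months old, and a restricted diet is given for every library by its labels but only for the aging of mice by the study's methods. At each age, a library came from naive nonventilated mice and another from mice ventilated for 3 hours at a tidal volume of 20 mL/kg (up to a fixed maximum), 150 breaths per minute, pure oxygen and no positive end-expiratory pressure. The ventilated mice also had anesthesia with ketamine and medetomidine, analgesia with buprenorphine and vascular lines, so that the effects of these procedures and of ventilation cannot be told apart. All cells were released by enzymes, frozen and thawed before capture. Runs of 4 values give young mice first, without and then with ventilation, followed by aged mice in that order.

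TNF is a cytokine made mainly by activated myeloid cells, and it acts on most cells of the lung through the receptor encoded by *Tnfrsf1a*. Receptor signaling frees NF-κB dimers, among them those that contain p50, from the inhibitor IκBα. The dimers then enter the nucleus and switch on inflammatory genes. Among the genes they switch on are their own brakes, namely *Nfkbia* (IκBα), *Tnfaip3* (the ubiquitin-editing enzyme A20) and *Tnip1* (an A20 partner), together with *Birc3*, *Nfkb2*, *Relb* and *Tnf* itself. In ventilator-induced lung injury, TNF and NF-κB are among the classical readouts of the inflammatory response.

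The proximal promoters show the DNA element through which this loop is known to act. The sequences below are the 250 bases before the RefSeq start site (GRCm38.p6, the same build as mm10), given 5′ to 3′ on the strand of the gene, and they were chosen because *Nfkbia* and *Tnip1* are 2 of the inhibitors described below and *Tnf* is their inducer. Capitals mark matches to the κB consensus, searched on both strands, and overlapping matches are merged into 1 run. The *Nfkbia* window is chr12:55492648-55492897 (minus strand), the *Tnip1* window chr11:54962941-54963190 (minus strand) and the *Tnf* window chr17:35202008-35202257 (minus strand).
Nfkbia: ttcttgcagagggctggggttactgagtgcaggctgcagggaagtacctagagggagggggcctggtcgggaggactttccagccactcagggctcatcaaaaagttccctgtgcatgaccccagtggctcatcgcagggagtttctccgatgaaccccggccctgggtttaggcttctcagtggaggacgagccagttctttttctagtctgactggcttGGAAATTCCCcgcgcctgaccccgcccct
Tnip1: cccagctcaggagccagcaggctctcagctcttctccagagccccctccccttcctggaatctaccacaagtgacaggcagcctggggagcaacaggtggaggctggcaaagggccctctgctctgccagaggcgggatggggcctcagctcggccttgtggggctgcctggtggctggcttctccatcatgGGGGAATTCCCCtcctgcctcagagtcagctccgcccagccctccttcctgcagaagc
Tnf: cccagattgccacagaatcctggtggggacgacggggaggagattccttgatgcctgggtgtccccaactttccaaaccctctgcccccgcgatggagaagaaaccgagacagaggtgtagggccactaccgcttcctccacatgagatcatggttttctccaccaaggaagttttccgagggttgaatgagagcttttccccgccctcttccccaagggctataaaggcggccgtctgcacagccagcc

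The *Nfkbia* window held a match 29 bases before the start, and the *Tnip1* window 3 overlapping matches 56 to 58 bases before it. No match was found in these 250 bases of *Tnf*. Of the other members, *Tnfaip3* (GGGACACCCC and GGAAATCCCC, 125 and 12 bases before the start at chr10:19015411-19015660, minus strand) and *Nfkb2* (GGGAATTCCC, GGAATTCCCC and GGGGCTTTCC, 39, 38 and 11 bases before the first of its 3 starts, chr19:46304487-46304736, plus strand) also held matches, and *Birc3* and *Tnfrsf1a* did not. The *Nfkb2* and *Tnfrsf1a* windows lie within the genes as the GENCODE annotation draws them, and all but the outermost bases of the *Tnfaip3* window do. A window was given for 7 of the 10 members, of which 4 held a match, whereas 4.46% of 27025 genes and 3.9% of 32851 start sites held one. A match describes the letters only and says nothing of binding in these cells.

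The libraries held 3630, 4497, 3901 and 3400 barcodes and 40655452 to 45218176 UMIs, of which 2430, 2750, 2374 and 1960 cells passed the limits on genes, mitochondrial share and UMIs. The cells formed 18 clusters, of which 17 were named from marker genes into 16 cell types, called "-like" since no annotation was used; a cluster of 364 cells stayed unnamed. The members were left out of the genes used for clustering. Shallow capillary-like cells (median of 959 UMIs) and the mixed alveolar type I and II-like cells (1407 UMIs) were shallow. Alveolar type II-like cells were not a type of their own in these clusters, and in finer ones they numbered only 14, 17, 18 and 4 cells. Pairs of libraries shared at most 7 barcodes. With a single library per group, the differences have no replicate check and carry no p-values. Printed ranges of counts, shares or ratios are exact 95% intervals (Poisson, Clopper-Pearson and conditional binomial), which cover counting error only, not differences between mice or pools. Those of UMI counts and their ratios also leave out the spread between cells. Levels that are compared below are those of 1 gene across cell types or libraries, never of different genes. A member was called higher or lower in a cell type when its CPM differed at least 2-fold between 2 libraries and the interval of the ratio left out 1. Its mean over these 2 libraries also had to be at least 50 CPM. A pair that is low in 1 library can thus be tested only because of its level in the other. The backgrounds over all genes used the same rule.

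Ventilation went with higher levels of many members in young mice and of fewer in aged mice. Of the 160 pairs of a member and a cell type, 127 reached 50 CPM in the young libraries. Of these, 42 (33.1%) were at least 2-fold higher in the young ventilated library, against a background of 9.05% over all genes and cell types, and 4 were lower (background 9.51%). Each member was higher in at least 2 cell types in young mice except *Nfkbiz*. In the aged libraries, 127 pairs reached the level, and 18 (14.2%) were higher after ventilation (background 6.28%). Another 8 of the 127 were lower, a share near the background of 6.61%. *Nfkb1*, *Nfkbiz* and *Birc3* were higher in 0 aged cell types. The counts of cell types given per member below are to be read against these same backgrounds. Among the pairs higher in young mice, 13 were also higher in aged mice, which is 31.0% of the 42 young pairs and 72.2% of the 18 aged pairs. The same overlap over all genes was not counted, so these 2 shares have no background. The tested pairs had a median log2 ratio of 0.60 among the young and 0.055 among the aged libraries. The heatmap of responses shows both ages side by side.

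**Figure D1:**
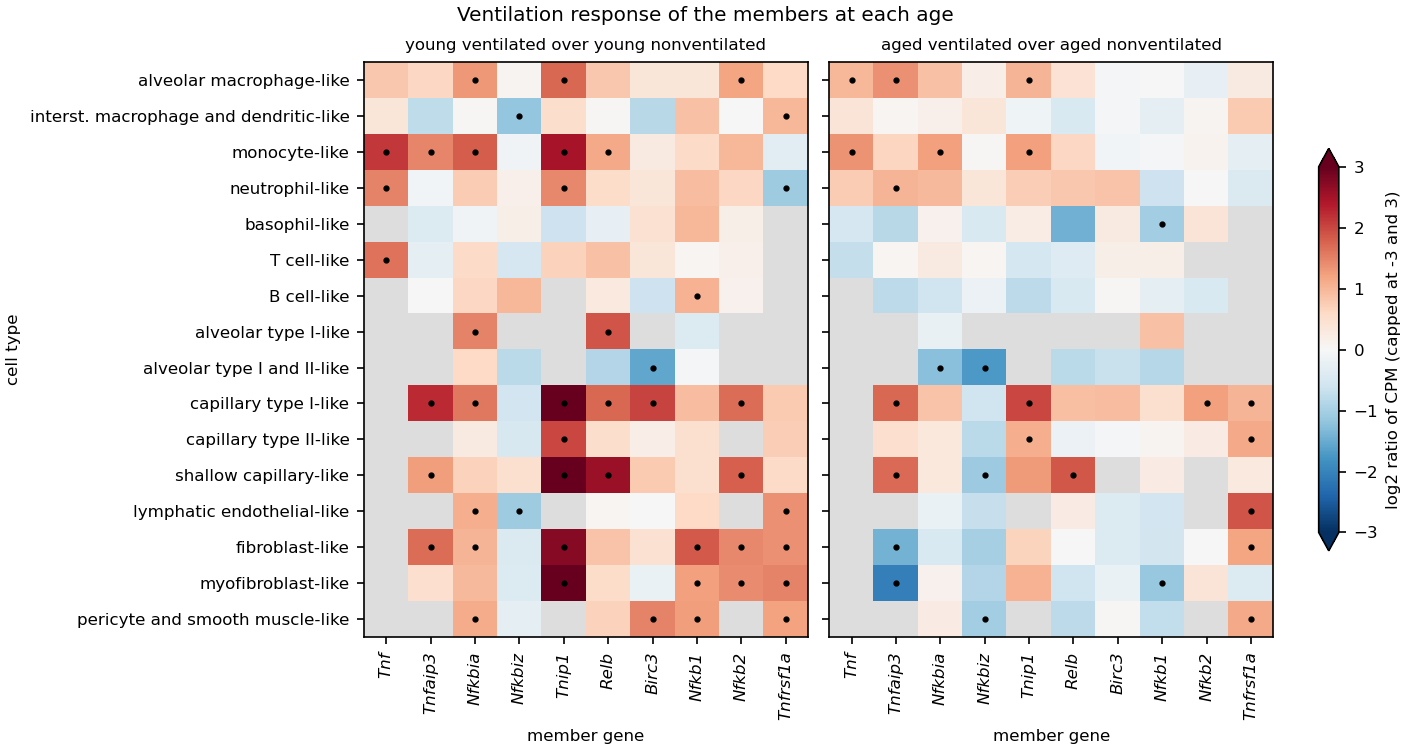
Log2 ratio of CPM, ventilated over nonventilated, of the 10 members (columns) in the 16 cell types (rows) for young and aged mice. Dots mark pairs at least 2-fold apart with a counting interval that leaves out 1, and grey cells have a mean under 50 CPM; 42 young and 18 aged pairs were higher, and the highest young ratio was that of *Tnip1* in myofibroblast-like cells.

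*Tnf* (17:35199381-35202007, minus strand) was a myeloid transcript in every library. Alveolar macrophage-, interstitial macrophage and dendritic-, monocyte- and neutrophil-like cells together held 1124 of 1177, 2967 of 3051, 1492 of 1599 and 3307 of 3382 *Tnf* UMIs, or 95.5% (94.2 to 96.6), 97.2% (96.6 to 97.8), 93.3% (92.0 to 94.5) and 97.8% (97.2 to 98.3). The 9 epithelial, endothelial and mesenchymal types gave 36 sums in the 4 libraries, of which 13 held no *Tnf* UMI and none exceeded 8.03 CPM. Lymphatic endothelial-like and myofibroblast-like cells held 0 *Tnf* UMIs in all 4 libraries.

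Of the cell types that reached 50 CPM, *Tnf* was higher after ventilation in 3 of 5 in young mice (monocyte-, neutrophil- and T cell-like) and 2 of 6 in aged mice (monocyte- and alveolar macrophage-like). In monocyte-like cells, *Tnf* stood at 91.6, 399.8, 168 and 427 CPM (258, 1256, 718 and 1595 UMIs). Both ventilated libraries lay above both nonventilated libraries, by 4.36-fold (3.81 to 5.01) in young and 2.53-fold (2.32 to 2.77) in aged mice. This class joined a nonclassical monocyte-like cluster (240, 211, 443 and 203 cells) and a classical monocyte-like cluster (4, 144, 31 and 111 cells), and the second was mainly made of ventilated cells. Finer clusters gave 21 types, in which 68 of 175 tested pairs were higher and 5 lower in young (backgrounds 9.71% and 9.69%) and 26 of 172 higher and 9 lower in aged ventilated mice (backgrounds 6.18% and 7.30%). These clusters, which put 100, 145, 115 and 111 cells into classical monocyte-like cells, kept the ventilated libraries above the controls within each monocyte subset. At this resolution, nonclassical monocyte-, general capillary- and alveolar fibroblast-like cells were each made of mostly nonventilated and mostly ventilated clusters, which were joined. There *Tnf* measured 58.5, 275, 50.4 and 310.4 CPM in classical and 128, 509, 215 and 516 CPM in nonclassical monocyte-like cells. The young rise was 4.71-fold (3.72 to 6.01) and 3.98-fold (3.38 to 4.72), and the aged rise 6.16-fold (4.72 to 8.17) and 2.40-fold (2.18 to 2.65), respectively. The summed neutrophil markers of the monocyte class were 412, 1054, 309 and 2413 CPM, thus also higher with ventilation, and their part in these values was not tested.

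Neutrophil-like cells carried 243, 684, 484 and 822 CPM of *Tnf* (130, 742, 111 and 1078 UMIs). The young ventilated level was 2.81-fold (2.33 to 3.41) that of young nonventilated mice, while the aged ratio had a log2 of 0.75 and was not called. A single aged nonventilated cell held 79 of the 111 *Tnf* UMIs (71.2%). Leaving out the cell with the most *Tnf* UMIs from each library, an alternative chosen after seeing the data, gave 225, 652, 142 and 799.8 CPM, with an aged rise of 5.64-fold (3.97 to 8.29). All genes of neutrophil-like cells had a median log2 ratio of −0.30 (young) and −0.34 (aged), relative to which *Tnf* was at 1.79 and 1.10. Neutrophil-like cells numbered 121, 223, 58 and 256.

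Alveolar macrophage-like cells held 314, 548, 220.1 and 442 CPM of *Tnf*, of which only the aged ratio reached the call (2.01-fold, 1.71 to 2.36; log2 0.82 without the top cells, which ends the call), beside a young log2 ratio of 0.80. The joint class of interstitial macrophage- and dendritic-like cells held 285, 369, 307 and 402 CPM, higher with ventilation at both ages by less than 2-fold (log2 0.37 and 0.39). Its parts did not move alike. Interstitial macrophage-like cells (53, 32, 32 and 37 cells) had 412, 869.8, 553 and 609 CPM, a young rise of 2.11-fold (1.80 to 2.49) and an aged log2 ratio of 0.14, whereas dendritic-like cells (32, 39, 60 and 20 cells) had 118, 64.9, 184 and 79.2 CPM and were lower in aged ventilated mice (log2 −1.17).

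In T cell-, B cell- and basophil-like cells, *Tnf* rested on few UMIs. T cell-like cells held 9, 28, 71 and 28 *Tnf* UMIs, or 28.1, 92.9, 91.7 and 54.8 CPM. The young nonventilated library was the lowest of these, the young ventilated one 3.31-fold higher (1.52 to 7.96), and the 2 aged libraries ran the other way (log2 −0.71, not called). Without the cell richest in *Tnf* in each library, the mean fell under 50 CPM in young mice and the call was lost. B cell-like cells held 15.1, 27.8, 20.1 and 33.8 CPM, and basophil-like cells 2, 2, 9 and 2 UMIs.

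**Figure D2:**
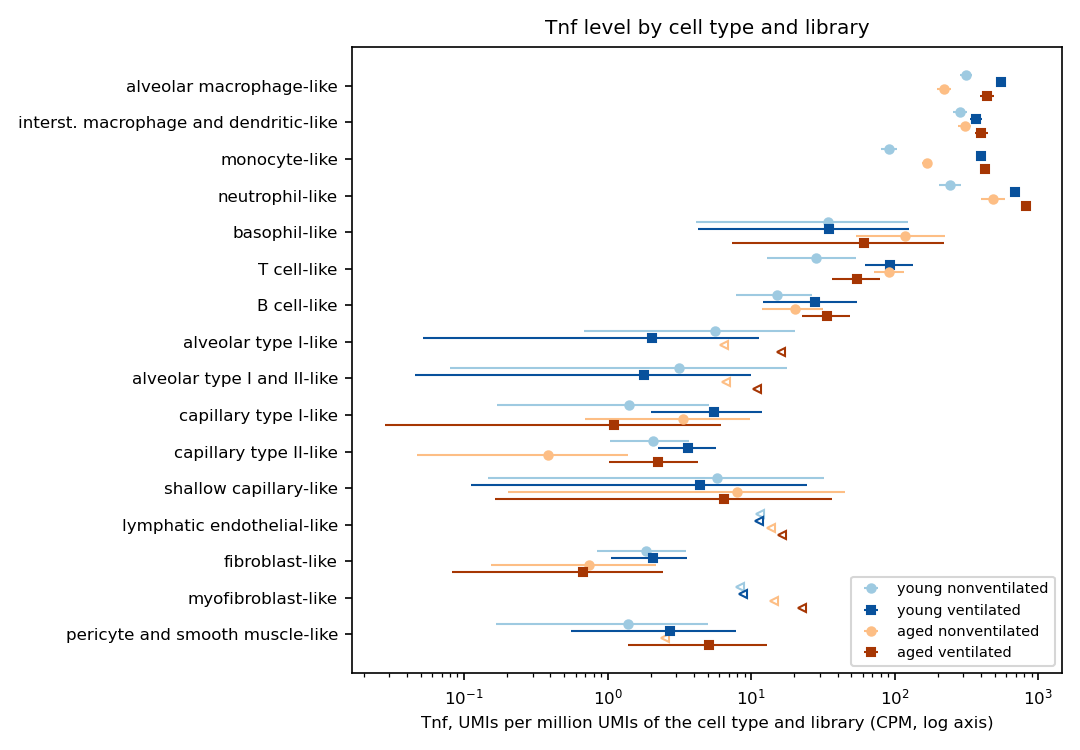
*Tnf* in CPM (log axis) per cell type and library, each point a library with its exact 95% Poisson interval; open left-pointing triangles mark libraries with 0 UMIs, placed at the value of 3 UMIs. The 4 myeloid types named above sit at or above 91.6 CPM in every library, and the epithelial, endothelial and mesenchymal types at or under 8.03 CPM.

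The share of cells with a *Tnf* UMI was higher in both ventilated than in both nonventilated libraries in monocyte- and neutrophil-like cells. After thinning each cell to 1000 UMIs, 6.97%, 28.5%, 13.7% and 26.8% of monocyte-like cells had at least 1 *Tnf* UMI, as did 19.2%, 40.7%, 15.8% and 43.0% of neutrophil-like cells and 28.8%, 36.5%, 12.9% and 35.7% of alveolar macrophage-like cells. Unthinned, the shares were 38.5%, 71.8%, 46.8% and 75.2% in monocyte-like, 36.4%, 68.2%, 29.3% and 70.3% in neutrophil-like and 83.8%, 90.5%, 78.8% and 81.0% in alveolar macrophage-like cells. Fibroblast-like cells, a type that should lack *Tnf*, had 0.28%, 0.47%, 0% and 0% thinned (upper bound for the last of them 1.76%) and 1.97%, 2.13%, 1.05% and 0.96% unthinned. Median depths were 7898.5 to 11509 UMIs in monocyte-like and 14194 to 14869 UMIs in fibroblast-like cells. Every myeloid share was therefore above this background.

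The cell types that held the *Tnf* UMIs differed between the libraries. Alveolar macrophage-like cells gave 34.5%, 19.5%, 18.6% and 9.14% of the *Tnf* UMIs of each library, and monocyte-like cells 21.9%, 41.2%, 44.9% and 47.2%. The neutrophil-like share was 11.05%, 24.3%, 6.94% and 31.9%, and that of interstitial macrophage- and dendritic-like cells 28.0%, 12.3%, 22.8% and 9.61%. Among the cells kept, alveolar macrophage-like cells held the largest share in young nonventilated mice, and monocyte-like cells in the other 3 libraries. Such shares also depend on which cells were captured and kept. Cells above 21021 UMIs were left out, and the kept alveolar macrophage-like cells had median depths of 16203 to 17751.5 UMIs. Those of monocyte-like cells were 7898.5 to 11509 UMIs. The part of this limit in the shares was not tested. Summed over all retained cells, *Tnf* stood at 54.0, 134, 73.4 and 191 CPM.

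**Figure D3:**
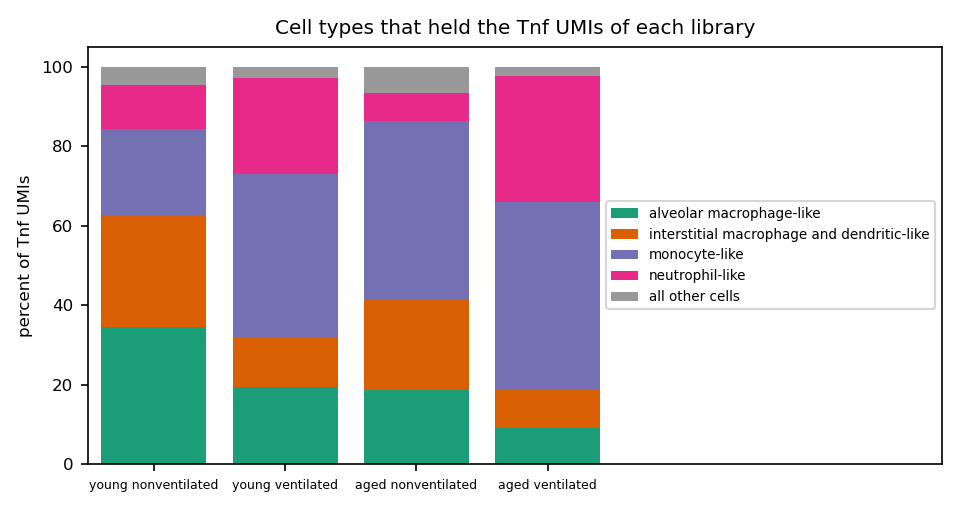
Share of each library's *Tnf* UMIs (percent) found in each cell type, 1 bar per library from 1177, 3051, 1599 and 3382 UMIs. The alveolar macrophage-like share falls from 34.5% to 19.5% in young and from 18.6% to 9.14% in aged mice, while the neutrophil-like share grows from 11.05% to 24.3% and from 6.94% to 31.9%.

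*Tnfrsf1a* (6:125349362-125362484, plus strand), which encodes TNF receptor 1, was spread differently from its ligand. It was higher after ventilation in 5 of 11 tested types in young and 5 of 11 in aged mice, and every one of these, apart from the young macrophage and dendritic class, was endothelial or mesenchymal. Fibroblast-like cells carried 89.1, 231, 84.8 and 193 CPM, with the 2 ventilated libraries well above the other two (2.60-fold, 2.33 to 2.90, and 2.27-fold, 1.98 to 2.61). Pericyte and smooth muscle-like cells followed the same order at 66.6, 155, 75.8 and 166 CPM (2.33-fold, 1.80 to 3.02, and 2.19-fold, 1.67 to 2.90). Lymphatic endothelial-like cells, with only 8 to 36 UMIs, stood at 49.7, 136, 36.6 and 147 CPM.

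Capillary type II (general capillary)-like cells had 133, 223, 108 and 238 CPM of *Tnfrsf1a*, and capillary type I (aerocyte)-like cells 130.4, 223, 129 and 262 CPM. In both, the ventilated libraries were higher at either age, and the aged ratios were called (2.21-fold, 1.99 to 2.46, and 2.03-fold, 1.62 to 2.56) while the young ones, at log2 0.74 and 0.77, fell short of 2-fold. The receptor went the other way in neutrophil-like cells, at 416, 199, 279 and 207 CPM, where young ventilated mice were 2.09-fold lower (1.72 to 2.53). Relative to the median of all genes in that type, the log2 ratio was −0.76, short of 2-fold. Monocyte-like cells were also lower at each age (205, 162, 169 and 139 CPM), though by less than 2-fold. Of all 10 members, the difference between the ages had its median nearest to 0 for *Tnfrsf1a* (log2 −0.08 over 11 types).

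The subunit gene *Nfkb1* (3:135584655-135691547, minus strand) encodes the p105 precursor of p50. Of the members, it had the largest number of cell types called with a larger young than aged ratio, 8 of 16. It was higher after ventilation in 4 of 16 types in young mice (fibroblast-, myofibroblast-, pericyte and smooth muscle-, and B cell-like) and in 0 of 16 in aged mice, where 2 types (myofibroblast- and basophil-like) were lower. In fibroblast-like cells *Nfkb1* measured 492, 1773, 927 and 634 CPM. The young ventilated library stood far above the rest (3.60-fold over young nonventilated, 3.45 to 3.77), and the aged ventilated library lay below its own control (log2 −0.55) and 2.80-fold below the young ventilated one (2.66 to 2.94). Myofibroblast-like cells (36, 40, 23 and 16 cells) had 956, 2236, 3070.2 and 1383 CPM. Here ventilation went with a 2.34-fold rise (2.06 to 2.67) in young and a 2.22-fold fall (1.88 to 2.63) in aged mice, and the aged nonventilated library was the highest.

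Within the pericyte and smooth muscle class, *Nfkb1* was called in smooth muscle-like cells, with 203, 779, 329.8 and 152 CPM (86, 50, 58 and 40 cells), where the young ratio was 3.84-fold (3.21 to 4.61) and the aged log2 ratio −1.10. Pericyte-like cells held 174, 215, 169.6 and 158 CPM and moved by less than 2-fold. Alveolar fibroblast-like cells (430.3, 1657, 825 and 562 CPM) and adventitial fibroblast-like cells (793, 2415, 1340.4 and 914 CPM) both repeated the pattern of the whole fibroblast class. T cell-like cells held 3952, 4113, 1308 and 1466 CPM of *Nfkb1*, with log2 ratios of 0.057 and 0.16 for ventilation. Both aged libraries were lower than the young ones, by 3.02-fold (2.78 to 3.28) and 2.80-fold (2.56 to 3.08). The markers of natural killer cells in this class summed to 2469.5, 2299, 955 and 1836 CPM, and their part in the age difference was not tested.

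*Nfkb2* (19:46304320-46312385, plus strand) encodes p100, the precursor of p52 of the noncanonical pathway. Aerocyte-like cells carried 39.3, 128, 51.6 and 123 CPM, and the 2 ventilated libraries lay together above the other two (3.25-fold, 2.37 to 4.51, in young and 2.38-fold, 1.67 to 3.43, in aged mice). Fibroblast-like cells had 40.7, 110.3, 55.9 and 55.6 CPM. In this type only the young ventilated library was raised, by 2.71-fold (2.31 to 3.20), and the aged libraries were level. Alveolar macrophage-like cells repeated this contrast at 38.6, 88.6, 55.4 and 45.8 CPM.

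*Relb* (7:19606217-19629438, minus strand) encodes the partner of p52. It was higher in 4 of 16 tested types in young mice (background 9.05%). In aged mice it was higher in 1 of 15, near the background of 6.28%. In aerocyte-like cells it stood at 68.7, 229, 114 and 215 CPM, a young rise of 3.33-fold (2.63 to 4.25) and an aged log2 ratio of 0.90. Monocyte-like cells had 72.1, 159, 112 and 173 CPM, with a called rise in young mice of 2.20-fold (1.86 to 2.60). Alveolar type I-like cells held 8, 45, 13 and 7 *Relb* UMIs, so that their 4.07-fold rise (1.90 to 10.0) in young mice rested on few molecules.

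*Nfkbia* (12:55489410-55492647, minus strand), the gene of IκBα, was higher after ventilation in 7 of 16 types in young mice but in 1 of 16, monocyte-like cells, in aged mice. Monocyte-like cells carried 369, 1298, 645 and 1525 CPM, and both ventilated libraries exceeded both controls (3.51-fold, 3.28 to 3.77, and 2.36-fold, 2.26 to 2.47). Aerocyte-like cells had 425, 1263, 679.6 and 1239 CPM. The 2 ventilated libraries there were nearly equal, and the smaller aged ratio (log2 0.87, against 1.57 in young mice) went with a higher aged nonventilated level.

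In alveolar macrophage-like cells, *Nfkbia* measured 343, 840.4, 357 and 654 CPM, a 2.45-fold rise (2.19 to 2.75) in young mice and a log2 ratio of 0.87 in aged mice. Neutrophil-like cells held 2207, 3732, 2261 and 4473 CPM, with log2 ratios of 0.76 and 0.98 that fell short of the call, and 1.06 and 1.33 relative to the median of all genes in that type. Fibroblast-like cells had 323, 655, 546 and 397 CPM, so that *Nfkbia* was higher in young ventilated mice (2.03-fold, 1.91 to 2.15) and was lower in the aged ventilated library than in its control (log2 −0.46). Alveolar type I-like cells showed the same contrast at 237, 665, 254 and 215 CPM (84, 326, 117 and 40 UMIs), and their aged ventilated level was 3.09-fold below the young ventilated one (2.22 to 4.41). General capillary-like cells differed by less than 2-fold, at 611, 741, 649 and 806 CPM.

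*Tnip1* (11:54910785-54962917, minus strand) encodes an adapter that binds A20 and linear ubiquitin and damps signaling upstream of NF-κB. Of the members it was called higher in the most cell types in young mice, 8 of 11 tested, and was higher in 4 of 12 in aged mice. Some of these types were tested only because of the ventilated level, among them both capillary types in young mice. Aerocyte-like cells had 25.9, 259.7, 49.3 and 200.3 CPM (37, 285, 44 and 181 UMIs), and both ventilated libraries were raised, by 10.0-fold (7.09 to 14.5) and 4.06-fold (2.91 to 5.78). General capillary-like cells carried 38.6, 155, 86.2 and 185 CPM, a rise of 4.02-fold (3.45 to 4.71) and 2.14-fold (1.90 to 2.41). In both capillary types, the ventilated libraries of the 2 ages were close, whereas the aged control of general capillary-like cells was 2.23-fold above the young control (1.89 to 2.65).

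Monocyte-like cells held 65.3, 366, 198 and 462 CPM of *Tnip1*, with ratios of 5.60-fold (4.79 to 6.58) in young and 2.34-fold (2.15 to 2.54) in aged mice and an aged control 3.03-fold above the young one (2.58 to 3.57). Fibroblast-like cells had 50.5, 336, 92.5 and 147 CPM, and here the aged ventilated library did stay behind, at 2.28-fold below the young ventilated one (2.06 to 2.54). Their young rise was 6.66-fold (5.83 to 7.63) and their aged log2 ratio 0.67. Myofibroblast-like cells held 4, 86, 14 and 19 UMIs, so the 22.3-fold rise in young mice had an interval of 8.39 to 83.6.

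*Tnfaip3* (10:19000910-19015657, minus strand), the gene of A20, moved in opposite directions at the 2 ages in fibroblast-like cells. Its levels were 36.2, 117, 105 and 39.0 CPM, from 177, 679, 425 and 115 UMIs. The young ventilated and aged nonventilated libraries were the high ones, so that ventilation went with a 3.22-fold rise (2.73 to 3.82) in young mice and a 2.69-fold fall (2.19 to 3.34) in aged mice. Both finer fibroblast types had this pattern, alveolar fibroblast-like cells with 32.3, 107, 87.7 and 30.2 CPM and adventitial fibroblast-like cells with 56.6, 177, 198 and 95.2 CPM. Myofibroblast-like cells had 58.9, 84.2, 212 and 44.9 CPM, of which the aged fall (4.73-fold, 2.01 to 13.6, on 44 and 6 UMIs) was called and the young log2 ratio was 0.50.

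*Tnfaip3* was called higher after ventilation in 4 of 11 tested types in young and 4 of 12 in aged mice. Aerocyte-like cells had 38.6, 185, 48.2 and 163 CPM, a rise of 4.80-fold (3.55 to 6.59) and 3.37-fold (2.39 to 4.86). Alveolar macrophage-like cells had 127, 195, 73.1 and 190.3 CPM, and only the aged ratio, 2.60-fold (1.99 to 3.41), was called. Neutrophil-like cells stood at 732, 696, 453 and 931 CPM, where the young libraries were level and the aged ventilated one was 2.05-fold above its control (1.68 to 2.53), or 1.37 on the log2 scale relative to the median of all genes in that type.

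*Birc3* (9:7848699-7873186, minus strand) encodes the ubiquitin ligase cIAP2. It was called higher in 2 of 15 types and lower in 1 in young mice (backgrounds over all genes 9.05% and 9.51%). In aged mice it was called neither way in any of 14 types (backgrounds 6.28% and 6.61%). These counts lie near the backgrounds. The lower call was in the mixed alveolar type I and II-like cells (log2 −1.57). Aerocyte-like cells had 25.2, 105, 46.0 and 88.5 CPM, with a 4.15-fold rise (2.83 to 6.22) in young mice and a log2 ratio of 0.93 in aged mice. Pericyte and smooth muscle-like cells had 61.7, 175, 111 and 113 CPM, and their young rise of 2.83-fold (2.19 to 3.68) had no counterpart in aged mice (log2 0.03).

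*Nfkbiz* (16:55811375-55838899, minus strand), which encodes the nuclear protein IκBζ, a coactivator of secondary inflammatory genes, was the member with no called rise in any main cell type. It was higher after ventilation in 0 of 15 tested types at either age, and lower in 2 of 15 in young and 3 of 15 in aged mice (backgrounds over all genes 9.51% and 6.61% lower). The joint interstitial macrophage and dendritic-like class carried 1287, 574, 863 and 1115 CPM, with young ventilated mice 2.24-fold below their control (2.04 to 2.47) and the aged libraries in the other order. Within it, dendritic-like cells were the ones with a called fall in young mice (788, 294, 588 and 449.9 CPM). Lymphatic endothelial-like cells had 612, 290.0, 595 and 365 CPM and were 2.11-fold lower (1.60 to 2.81) in young ventilated mice. Fibroblast-like cells, with 649, 482, 921 and 464 CPM, were lower after ventilation at both ages by less than 2-fold (log2 −0.43 and −0.99).

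Set side by side by cell type, aerocyte-like cells had 6 of 9 tested members higher in young (background 12.0%) and 4 of 9 in aged mice (background 6.47%). Fibroblast-like cells had 6 of 9 in young (background 10.8%) but 1 of 9, *Tnfrsf1a*, in aged mice (background 5.13%). Monocyte-like cells had 5 of 10 (background 8.87%) and 3 of 10 (background 7.50%), and alveolar macrophage-like cells 3 of 10 at each age (backgrounds 4.44% and 1.66%). General capillary-like cells, the most numerous type, had 1 of 7 (*Tnip1*; background 9.18%) and 2 of 9 (*Tnip1* and *Tnfrsf1a*; background 4.42%). Interstitial macrophage and dendritic-like cells gave the 10 members a median log2 ratio of 0.042 (young) and 0.066 (aged).

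The response of each pair was then compared between the ages as the difference of the 2 log2 ratios, with an interval from the 4 UMI counts. Of 127 pairs with a mean of at least 50 CPM, 34 (26.8%) differed at least 2-fold with an interval that left out 0, against a background of 11.9% over all genes. In 31 the young ratio was the larger (background 6.11%), and in 3 the aged one (background 5.79%). These 3 were *Nfkbiz* in interstitial macrophage and dendritic-like cells, *Nfkb1* in alveolar type I-like cells and *Tnfaip3* in neutrophil-like cells. The *Nfkb1* difference had an interval of 0.029 to 2.54 on as few as 13 UMIs. The joint macrophage and dendritic class differed in its mix of cells between the libraries, and the part of this mix in *Nfkbiz* was not tested. The median difference was −0.55, and 92 of the 127 lay below 0. *Nfkb1* contributed 8 of the 31 in 16 types, and *Nfkbia* and *Tnip1* 5 each, whereas *Tnfrsf1a* contributed 1 of 11.

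Mesenchymal cells held many of these. Fibroblast-like and myofibroblast-like cells each had 5 of 9 tested members with a larger young ratio, and pericyte and smooth muscle-like cells 3 of 6. They were not alone in this, since B cell-like cells had 3 of 7, T cell-like cells 3 of 9 and lymphatic endothelial-like cells 2 of 6. General capillary-like cells had 0 of 9. The background of 6.11% is over all genes and all cell types together. Shares over all genes within each of these types are not given here, so the counts are not set against their own type. In fibroblast-like cells, the differences were −3.10 (−3.48 to −2.72) for *Tnfaip3*, −2.40 (−2.50 to −2.29) for *Nfkb1*, −2.06 (−2.34 to −1.78) for *Tnip1*, −1.48 (−1.61 to −1.35) for *Nfkbia* and −1.44 (−1.81 to −1.07) for *Nfkb2*. Their own *Tnf* was at most 2.06 CPM in any library. The summed alveolar macrophage markers in these cells were 34.5, 26.9, 39.1 and 30.5 CPM and the neutrophil markers 17.4, 50.5, 9.89 and 58.0 CPM, and their part in these differences was not tested. The alveolar fibroblast markers of these cells were lower with ventilation at both ages (12709, 4761, 12002 and 6239 CPM).

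**Figure D4:**
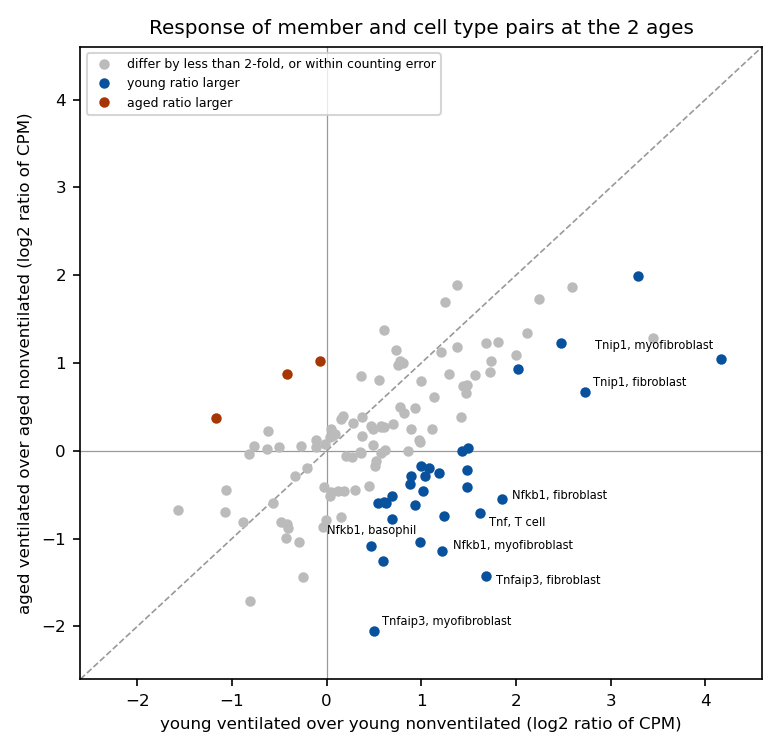
Log2 ratio of CPM, ventilated over nonventilated, in young (x axis) against aged mice (y axis) for the 127 pairs of a member and a cell type with a mean of at least 50 CPM; the dashed line marks equal ratios and labels name pairs at least 4-fold apart. Blue points (31) have a larger young and red points (3) a larger aged ratio.

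Comparing the ages directly, 11 pairs were higher in the aged than in the young nonventilated library (background 2.70%) and 3 were lower (background 2.33%), of 115 tested. *Tnfaip3* was higher in aged nonventilated fibroblast-, myofibroblast- and monocyte-like cells (2.91-, 3.61- and 2.41-fold), *Tnip1* in monocyte- and general capillary-like cells, and *Nfkb1* in myofibroblast- and basophil-like cells. After ventilation the direction was the other, with 0 of 129 tested pairs higher (background 4.06%) and 12 lower (background 3.99%) in aged mice. These 12 included *Tnfaip3*, *Tnip1* and *Nfkb1* in fibroblast-like cells, *Tnip1*, *Relb* and *Nfkb1* in pericyte and smooth muscle-like cells, and *Nfkbia* and *Relb* in alveolar type I-like cells. The 4 comparisons share libraries, so a high aged nonventilated level enters both the aged ventilation ratio and the age ratio.

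Other genes of the pathway were counted by list in the same way, against the backgrounds over all genes. These were 9.05% higher and 9.51% lower in young and 6.28% higher and 6.61% lower in aged ventilated mice. Of the tested pairs of other NF-κB target genes and cell types, 49 of 117 (41.9%) were higher and 4 lower in young, and 21 of 120 (17.5%) higher and 9 lower in aged ventilated mice. TNF-superfamily ligands and receptors had 16 of 52 (30.8%) higher and 4 lower, and 10 of 46 (21.7%) higher and 1 lower. Other inhibitors and feedback genes had 25 of 104 (24.0%) higher and 3 lower in young, and 9 of 97 (9.28%) higher and 4 lower in aged mice. The adapters, ubiquitin ligases and kinases had shares higher near the background, with 9 of 111 (8.11%) higher and 3 lower in young and 5 of 120 (4.17%) higher and 7 lower in aged mice. The remaining subunits (*Rela* and *Rel*) had 3 of 27 and 0 of 26 higher.

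Only some of the largest changes are named here. *Sod2*, the mitochondrial superoxide dismutase and an NF-κB target, led in monocyte-like cells with 75.6, 1499, 219.6 and 1731 CPM, a rise of 19.8-fold (17.3 to 22.8) and 7.88-fold (7.36 to 8.45). In aerocyte-like cells *Nfkbie*, the gene of IκBε, went from 5.61 to 110.3 CPM and *Cd40*, a TNF-family receptor, from 22.4 to 278 CPM in young mice, and both were lower in aged than in young ventilated mice. Fibroblast-like cells had more *Sod2* (log2 2.68 and 1.29) and *Tnfrsf12a*, the receptor of TWEAK (log2 2.50 and 1.41), at both ages, and less of the transcription factor gene *Irf1* in aged ventilated mice (log2 −1.74). In neutrophil-like cells *Cflar*, an inhibitor of death receptor signaling, had log2 ratios of 2.60 and 2.14. *Map3k14*, which encodes the kinase NIK of the noncanonical pathway, was 3.69-fold lower (3.38 to 4.03) in aged ventilated monocyte-like cells.

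Immediate early and heat shock genes, which can respond to the release of cells from tissue, had 14 of 129 tested pairs (10.9%) higher and 27 (20.9%) lower in young ventilated mice, and 12 of 133 (9.02%) higher and 18 (13.5%) lower in aged ones. The shares higher were near the backgrounds of 9.05% and 6.28%, and the shares lower were above those of 9.51% and 6.61%. Their part in the members' values was not tested. By pattern over the 64 sums of 16 cell types and 4 libraries, the 5 genes most like *Tnf* among 4152 genes were the leukocyte genes *Cd84*, *Hcls1*, *Itgb2*, *Lcp2* and *Cd53* (Pearson r of log2 CPM 0.92 to 0.91), and those most like *Nfkbia* were *Nfkb2*, *Tnfaip3*, *Kdm6b*, *Ccl4* and *Lilr4b* (0.81 to 0.79). The r of *Tnf* was 0.69 with *Tnfaip3* and −0.0019 with *Tnfrsf1a*. These correlations are descriptions, since the points share libraries and depth.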

How the data were processed

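Lung cells of 4 groups of male mice (young or aged, nonventilated or ventilated) were measured by 10x scRNA-Seq, 1 library of 3 pooled mice per group. The authors aligned the reads to mm10 with Cell Ranger 7.0.0 (per the submitters' processing notes and the study's methods) at its recommended settings, and deposited UMI counts that were not normalized. Intronic reads are counted by default in this version, which raises genes with long introns.

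Of 15428 barcodes, 9514 passed a window of 200 to 5000 genes, a mitochondrial limit of 10% and a UMI limit of 21021 (percentile 93 of barcodes that met the other limits). They were clustered with 2000 variable genes without the members and pathway genes, 37 components and resolution 0.18 (finer types: 0.5), in R 4.3.3 with Seurat 5.3.0 and Matrix 1.6.5. No doublet caller was run. Clusters were named from at least 3 detected markers. UMIs were summed per cell type and library (32718 to 5827281), and log2 ratios had 1 UMI added to each sum. A count of 0 was set to a floor of 3 UMIs for a ratio. Python 3.11.15, scipy 1.17.1 and pandas 2.3.3 were used. The exact intervals of ratios were tested on simulated Poisson counts with no spread between cells or libraries, which is the model they assume. This test does not cover such spread.

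All 10 members were given. Pathway genes could be named only if they were among the 2 largest rises or 2 largest falls per comparison in 6 cell types, and only some of these were named. Like genes were the 5 with the highest r. The members, the lists and the rules were chosen with earlier results of these data known, so they are not independent support for any pattern. Alternatives varied the cell filter, resolution, variable genes, weighting, scaling, depth, level and fold, and, after seeing the data, the cell with the most UMIs of a member.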

Additional observations from a re-analysis of the deposited data

Results flagged for a closer look

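In 2 pairs of a member and a main cell type, the young and the aged response to ventilation ran in opposite directions, each past 2-fold. The share of such pairs over all genes was not counted, so this count has no background. Finer types are not counted here, and among them *Nfkb1* in smooth muscle-like cells, given above, also ran both ways. *Tnfaip3* in fibroblast-like cells had a log2 ratio of 1.68 in young and −1.42 in aged mice, a difference of −3.10. *Nfkb1* in myofibroblast-like cells had 1.22 and −1.14, a difference of −2.37. With 1 library per group these differences were not tested against the spread between mice, and both also carry the higher aged nonventilated level of the gene.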

How the results depend on the processing

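No paired analysis was possible because each group was a single pooled library with no replicate numbers, and for the same reason no library could be left out. The main limits are the absence of replicates, few cells in several types (6 to 22 basophil-like and 16 to 40 myofibroblast-like cells per library) and shallow epithelial and capillary clusters. With a fold of 1.5 in place of 2, the pairs higher and lower were 66 and 8 in young and 31 and 23 in aged ventilated mice, and, in aged over young, 36 and 6 without and 3 and 33 with ventilation. The number of pairs lower in aged ventilated mice (8) was 5 with no upper limit on UMIs or genes, 5 with the percentile over all barcodes, and 4 with each cell thinned to 1000 UMIs or with the mean of per-cell CPM. It rose to 12 with the median log2 ratio set to 0, and to 9 with a level of 10 CPM or with none. Thinning and per-cell means each gave 2 pairs higher in aged over young ventilated mice (0 in the report), per-cell means 1 pair lower in aged over young nonventilated mice (3), and a mitochondrial limit of 5% gave 2 pairs lower in young ventilated mice (4). The pairs higher in young ventilated mice numbered 30 to 50 and in aged ventilated mice 12 to 23 under the other alternatives. The pairs whose response differed between the ages (34) fell to 24 with each cell thinned to 1000 UMIs. They numbered 28 to 36 under the other alternatives for which they were counted. Signs turned in 6 called values. With no upper limit on UMIs or genes, *Nfkbia* in alveolar type I and II-like cells had a log2 ratio of 0.91 in aged ventilated over nonventilated and −0.23 in aged over young nonventilated mice, and *Tnfrsf1a* there 0.033 in aged over young ventilated mice. Without cells under 2000 UMIs, *Tnfaip3* in shallow capillary-like cells had −0.46 in young mice. Thinned, *Relb* in alveolar type I-like cells had −1.47 in young ventilated over nonventilated and 2.95 in aged over young ventilated mice, on few UMIs; for the rest the cause was not tested. Shallow capillary-like cells were not found under the other percentile, at resolution 0.5 or with the members among the variable genes, and alveolar type I and II-like and interstitial macrophage and dendritic-like cells not at 5% mitochondrial UMIs.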

Other observations

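Of the smaller populations that only the finer clusters set apart, 2 are described here. Mesothelial-like cells, the lining of the pleura, numbered 9, 12, 3 and 3 cells, and 7 of 9 tested members were at least 2-fold higher in the young ventilated library (background over all genes of these cells 11.7%). There *Nfkbia* stood at 376, 1689, 568 and 1629.7 CPM, *Nfkb1* at 117, 666, 445 and 912 CPM, and *Nfkbiz*, which was higher in none of the 16 main cell types, at 259, 585, 272 and 856 CPM. With 3 cells in each aged library these levels rest on very few cells.

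Venous endothelial-like cells (79, 57, 79 and 69 cells) resembled the capillary types in *Tnip1*, with 60.6, 421, 165 and 439.9 CPM, a rise of 6.94-fold (5.03 to 9.77) at the young and 2.67-fold (2.15 to 3.32) at the old age.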
